A study of Mus musculus with 5 samples.

Results

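The genes described here are the ephrins and their Eph receptors, the Slit ligands and Robo receptors, and the netrins with their receptors of the Dcc, neogenin and Unc5 families. Within these families the genes were taken by symbol alone, but the families were chosen with earlier results of these data known. Every row of the count files was taken that names an Eph receptor, ephrin, Slit, Robo, netrin, netrin-G, Unc5 receptor, Dcc or Neo1. The rule found 41 genes among 34590, and 38 of them had enough reads to be tested with all libraries. RNA was sequenced from dissected cortex of wild-type mouse embryos of mixed strain background at stage E14.5, with 3 libraries of medial cortex and 2 of lateral cortex. No treatment was given to either group, and the design text names the comparison of these regions.

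These proteins tell growing axons and migrating neurons where to go. Ephrins are held in the membrane of one cell and bind Eph receptor tyrosine kinases on its neighbour, ephrin-A ligands by a lipid anchor and ephrin-B ligands by a transmembrane segment, and binding can signal into both cells. Slits are secreted repellents that bind Robo receptors, and netrins are laminin-related secreted cues that attract through Dcc and repel when Unc5 receptors take part. In the embryonic cortex they act on thalamic and callosal axons, on the sorting of migrating neurons and on the borders between areas.

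Reads assigned to genes numbered between 27406370 and 36460274 in medial libraries but 56147129 and 66981952 in lateral libraries, which were thus the deeper ones. Levels below are in CPM, a gene's reads relative to all gene reads of its library after TMM scaling between libraries. Genes of the dorsal telencephalon such as Emx1 and Pax6 were present in every library. The summed level of 9 pan-neuronal markers was lower in medial cortex (997 to 1536 CPM) than in lateral cortex (2000 to 2583 CPM, 1 of 9 higher and 4 lower), and that of 8 radial glia markers was higher (2933 to 3623 against 1969 to 2303 CPM, 2 of 8 higher). The 8 Cajal-Retzius markers summed to between 584 and 678 CPM in medial and between 180 and 222 CPM in lateral libraries, with 8 of 8 higher. The 10 markers of GABAergic interneurons and subpallium summed to between 3.15 and 18.3 CPM in medial and to 70.0 and 105 CPM in lateral libraries, with 6 of 9 tested lower. The part of these cell types in the results below was not tested. Medial library 1 stood apart: its 8 markers of meninges and fibroblasts summed to 296 CPM against between 14.0 and 21.5 CPM in the other libraries, and its 10 cortical hem markers to 422 CPM against between 149 and 173 in the other medial libraries and at most 41.7 CPM in lateral ones (9 of 10 higher). The 7 microglia markers summed to 57.5 CPM in that library and to between 20.2 and 30.1 CPM in the others. The 7 thalamic and diencephalic markers summed to between 569.5 and 632 CPM in medial and to 218 and 320 CPM in lateral libraries, with 2 of 3 tested higher. Most of that sum was Lhx2, which cortical progenitors also express, while Gbx2, Foxb1 and Sim1 stayed under 1 CPM in every library. Lhx9 had 61.2, 70.7 and 50.9 CPM in medial and 10.8 and 3.68 CPM in lateral libraries. Tcf7l2 had between 4.62 and 7.03 CPM with overlapping groups. Olig3 had 1.01 CPM in medial library 1 and at most 0.122 CPM in the others. The part of thalamic or diencephalic tissue in the results below was not tested. These are pieces of tissue, so fewer cells of a type and less RNA per cell cannot be told apart. Nothing in the labels says whether libraries of a group came from separate embryos, and the p-values rest on the spread among these samples alone, which may be technical.

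Of the 38 guidance genes tested, 9 passed an adjusted p of 0.05 in edgeR's quasi-likelihood test, which 9.72% of all genes tested did. Unless another fit is named, edgeR results are from this one, with all libraries and group as the only term. Slit2, Slit3, Ephb1, Ephb3 and Efna5 were higher in medial cortex, 5 genes where the share over all genes in that direction was 4.62%. Robo2, Epha3, Ntng2 and Neo1 were lower, 4 genes where the share over all genes was 5.1%. Differences of at least 2-fold, whatever their p, were found in 15 of the 38 against 9.85% of all genes. The median size of a log2 fold change, without its sign, was 0.71 over these genes and 0.26 over all genes tested, while the signed medians were −0.18 and 0.01. The medial and lateral libraries did not overlap in 28 of the 38, where 53.3% of all genes did not overlap. Medial libraries lay above the lateral ones in 12 genes (26.5% of all genes) and below them in 16 (26.7%). Because the members were chosen with earlier results of these data known, these comparisons with all genes only describe the members.

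How many genes passed changed with the libraries used. Without medial library 1, 16 of the 39 members then tested passed (13.2% of all genes), and these held all 9 above. Ntn1 and Robo3 then joined the genes that were higher in medial cortex, and Epha5, Slit1, Ntn3, Ntn4 and Unc5d those that were lower. Without medial library 3, 7 passed (3.01% of all genes) and Efna5 and Neo1 did not. In edgeR 0 members passed without medial library 2 (0% of all genes), without lateral library 1 (0.108%) or without lateral library 2 (0%), and at an unadjusted p under 0.05 there were 9 higher and 10 lower, 6 higher and 8 lower, and 7 higher and 4 lower members, where over all genes 4036 of 16496, 4050 of 16616 and 2456 of 16544 were at such a p. DESeq2, another count test, called 21 of the 38 with all libraries (21.7% of all genes). Without medial library 1 or 2 it tested 39 members, and 38 in its other fits. Without medial libraries 1, 2 and 3 in turn it called 21, 13 and 21 members (18.6%, 12.2% and 19.1% of all genes), and without lateral libraries 1 and 2 it called 12 and 6 (13.1% and 4.01%). The 6 were Slit2, Slit3, Ephb1 and Ephb3, higher in medial cortex, and Robo2 and Ntng2, lower.

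**Figure D1:**
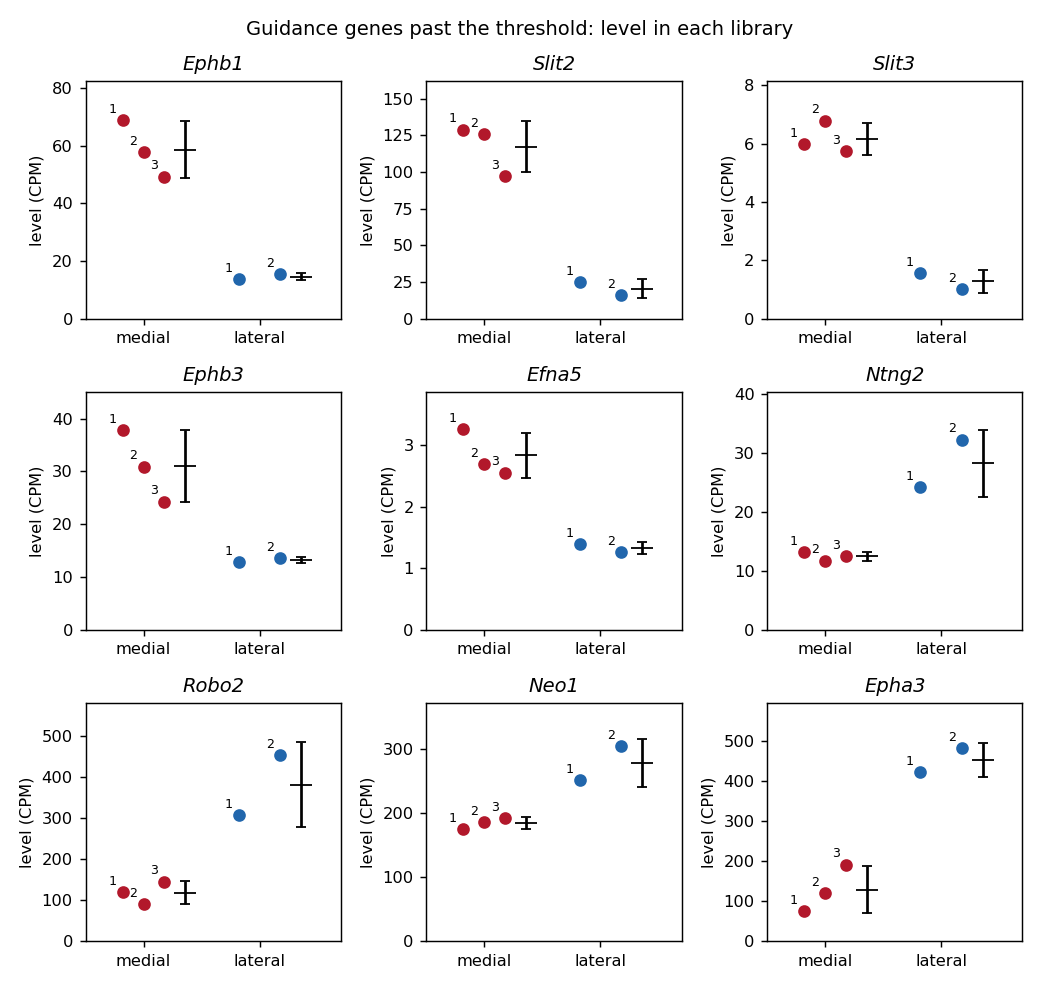
Level in TMM-scaled CPM (linear axis from 0) of the 9 guidance genes that passed the threshold, 1 panel a gene. Each point is a library with its replicate number, medial in red and lateral in blue, and the black bar is the mean ± 1 SD of 3 medial or 2 lateral libraries. In every panel the medial and lateral points are apart, and they come nearest in ratio in Neo1, at 192 CPM in medial library 3 and 251 CPM in lateral library 1.

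Slit2 and Slit3, secreted Robo ligands, had the largest differences of the genes that passed. Slit2 had 129, 126 and 97.2 CPM in medial libraries 1 to 3 and 25.2 and 15.8 CPM in lateral libraries 1 and 2. Each medial library held at least 3 times the level of either lateral one, and the log2 fold change of medial over lateral was 2.52 (SE 0.24, adjusted p = 0.0253, edgeR), a 5.72-fold difference. Slit3 was much less abundant, with 5.97, 6.78 and 5.73 CPM in medial libraries and 1.55 and 1.00 CPM in lateral ones, from between 54 and 206 reads a library. Its medial libraries were closer to each other than those of Slit2, and its log2 fold change was 2.25 (SE 0.25, adjusted p = 0.0255, edgeR).

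Slit1, a Slit found mainly in the nervous system, had the opposite sign. It had 31.0, 63.7 and 58.5 CPM in medial and 88.9 and 88.2 CPM in lateral libraries, without overlap, and medial library 1 was the lowest. The log2 fold change was −0.79 (SE 0.29) and did not pass with all libraries (adjusted p = 0.122, edgeR). Without medial library 1 it was −0.53 (SE 0.08) and passed (adjusted p = 0.0228). Per kilobase of exon, Slit2 had 12.9, 12.6 and 9.70 CPM in medial libraries where Slit1 had 5.31, 10.9 and 10.01. Slit2 was thus the higher of the pair in medial libraries 1 and 2 and not in library 3. In lateral cortex Slit1 was the more abundant per kilobase in both libraries, at 15.2 and 15.1 CPM against 2.51 and 1.58 for Slit2.

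The stretches around the start sites of 4 of these genes are shown because Slit2 and Slit3, and Epha3 and Ntng2 below, have the largest differences in each direction among the genes that passed and have a single listed start. Each runs 5′ to 3′ from 250 bases before to 50 after the RefSeq start on GRCm38.p6, a later build than the mm9 of the counts. They lie at chr5:47982905-47983204 (plus strand), chr11:35121206-35121505 (plus), chr16:63864126-63864425 (minus) and chr2:29248050-29248349 (minus). Capitals mark a match to any of 5 motifs searched on both strands, and no stretch here holds more than 1 match.

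Slit2: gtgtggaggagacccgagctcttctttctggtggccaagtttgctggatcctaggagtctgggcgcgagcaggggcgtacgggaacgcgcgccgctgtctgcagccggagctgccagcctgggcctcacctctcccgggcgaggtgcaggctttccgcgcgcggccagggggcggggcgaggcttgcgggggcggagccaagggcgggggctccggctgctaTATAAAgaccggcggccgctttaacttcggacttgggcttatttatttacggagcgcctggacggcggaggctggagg
Slit3: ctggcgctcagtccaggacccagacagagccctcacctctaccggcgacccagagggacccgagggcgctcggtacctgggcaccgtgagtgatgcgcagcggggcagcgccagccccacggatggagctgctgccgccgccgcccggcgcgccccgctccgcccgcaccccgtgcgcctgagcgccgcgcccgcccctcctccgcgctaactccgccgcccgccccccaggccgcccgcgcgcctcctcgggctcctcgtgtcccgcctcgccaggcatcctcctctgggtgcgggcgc
Epha3: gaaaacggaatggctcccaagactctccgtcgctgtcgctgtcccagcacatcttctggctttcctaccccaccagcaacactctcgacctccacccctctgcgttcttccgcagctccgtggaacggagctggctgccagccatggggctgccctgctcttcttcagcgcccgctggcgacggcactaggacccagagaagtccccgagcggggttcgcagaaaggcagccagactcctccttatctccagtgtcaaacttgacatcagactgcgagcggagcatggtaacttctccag
Ntng2: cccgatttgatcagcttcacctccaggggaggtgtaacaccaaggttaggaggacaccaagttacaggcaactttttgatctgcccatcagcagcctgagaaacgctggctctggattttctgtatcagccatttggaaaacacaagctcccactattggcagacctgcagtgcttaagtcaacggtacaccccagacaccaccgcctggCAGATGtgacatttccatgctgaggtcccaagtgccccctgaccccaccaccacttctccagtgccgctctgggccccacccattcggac

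Slit2 holds a TATA box, TATAAA, whose first base as printed lies 28 bases before the start. Those letters occur on either strand, at any position, in 13.6% of 32851 listed promoters of this length. Among the genes matched they occur in 2, Slit2 and Efnb2. Ntng2 holds the E-box CATCTG, read on the other strand, 40 bases before the start, a motif in 4 of the genes matched and 17.2% of all promoters. Slit3 and Epha3 hold none of the 5. There were 41 listed promoters of 36 of the 41 genes. A TCF/LEF core (CTTTGA or CTTTGT), the motif of Wnt effectors, was in 4 of these 36 genes (31.2% of all promoters). These were Efna2, Efna4, Epha2 and Robo4, and none passed in edgeR with all libraries and group as the only term. The GLI motif GACCACCCA of hedgehog effectors was in 0 of the 36 genes (0.253% of all promoters). The homeodomain core TAATTA was in Efna1, Epha5 and Robo3 (5.29% of all promoters). These are matches of letters in short windows.

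Robo2, a receptor of Slits on axons and migrating neurons, was lower in medial cortex. It had 119, 90.3 and 145 CPM in medial and 308 and 454 CPM in lateral libraries. The highest medial value was under the lowest lateral one by more than the spread of the medial libraries, and the log2 fold change was −1.69 (SE 0.24, adjusted p = 0.0296, edgeR), a 3.23-fold higher level in lateral cortex. Robo1, its close relative, had 113, 198 and 218 CPM in medial and 243 and 375 CPM in lateral libraries. Its groups did not overlap, but medial library 3 and lateral library 1 were close, and the difference did not pass (log2 fold change −0.81, SE 0.31, adjusted p = 0.138, edgeR). Per kilobase of exon, Robo1 exceeded Robo2 in each medial library (14.9, 26.2 and 28.9 against 13.3, 10.1 and 16.2 CPM). In lateral cortex they were nearly level, at 32.2 and 49.5 CPM for Robo1 and 34.5 and 50.9 CPM for Robo2.

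Robo3, a divergent Robo known from commissural axons of the hindbrain and spinal cord, had the opposite sign. It had 28.4, 7.62 and 9.96 CPM in medial and 4.12 and 3.31 CPM in lateral libraries, so that medial library 1 stood 2.85-fold above every other library. The log2 fold change was 2.04 (SE 0.61, adjusted p = 0.0817, edgeR). It fell to 1.24 (SE 0.21) without that library and then passed (adjusted p = 0.0259). Robo4, a receptor of blood vessel endothelium, had 2.22, 2.83 and 2.56 CPM in medial and 3.999 and 4.36 CPM in lateral libraries (log2 fold change −0.72, SE 0.19, adjusted p = 0.0617, edgeR). The 11 endothelial markers summed to between 103 and 117 CPM in medial and between 135 and 152 CPM in lateral libraries, with 1 of 11 lower in medial cortex and 0 higher. The part of vessel content in the Robo4 values was not tested.

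**Figure D2:**
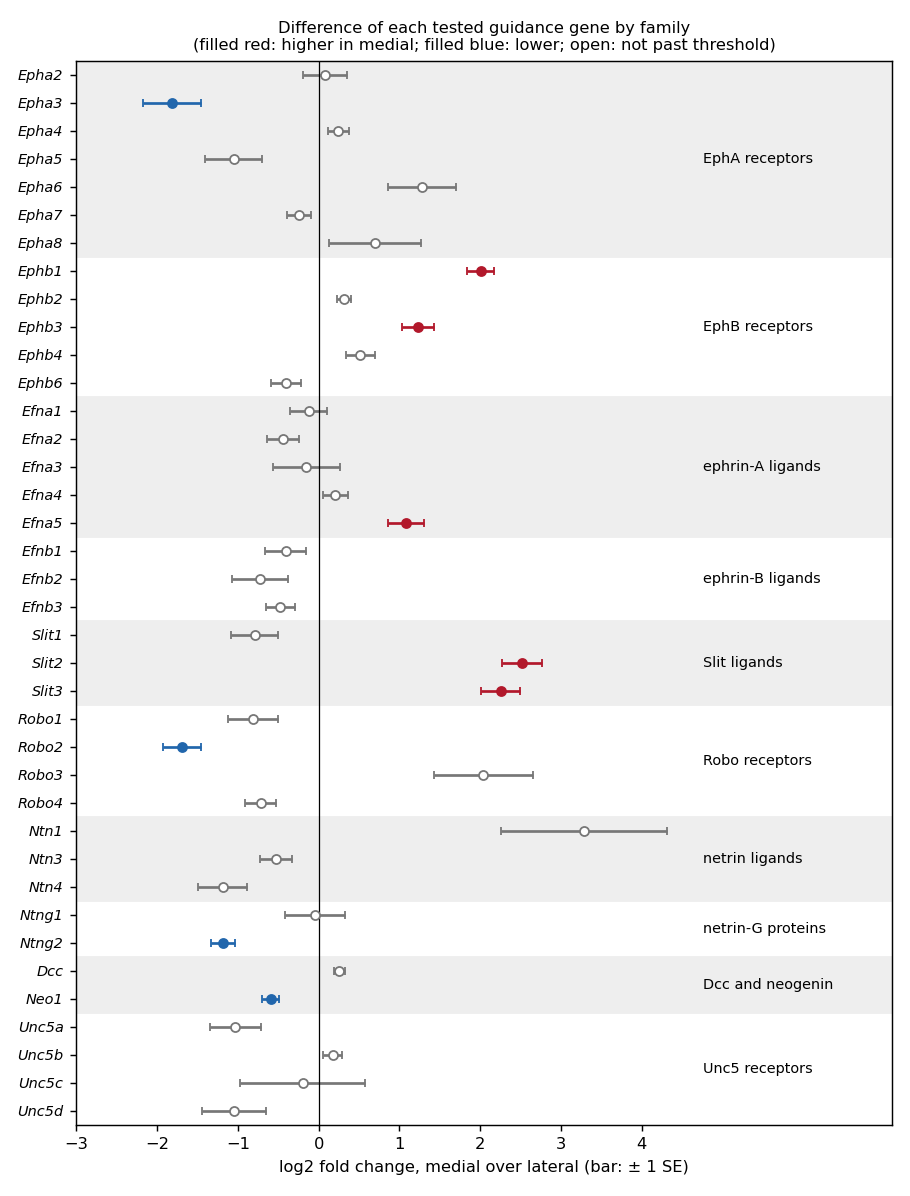
Log2 fold change of medial over lateral cortex (horizontal axis) for the 38 tested genes, by family, with bars of ± 1 SE from edgeR. Filled red points were higher and filled blue points lower at an adjusted p under 0.05, and open points did not pass; Slit2 (2.52) and Slit3 (2.25) lie right of Slit1 (−0.79), and Ntn1 has the widest bar among the points right of 2.

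Of the 5 EphB receptors 2 were higher in medial cortex and 0 lower, with a median log2 fold change of 0.52, where 4.62% of all genes were higher and 5.1% lower and the median was 0.01. Of the 7 EphA receptors tested 0 were higher and 1 lower, with a median of 0.07, and the difference between these families was not tested. Ephb1, a receptor for ephrin-B ligands, had 68.9, 57.7 and 49.3 CPM in medial and 13.7 and 15.5 CPM in lateral libraries. The lateral libraries were nearly equal and far below, and the log2 fold change was 2.01 (SE 0.17, adjusted p = 0.0231, edgeR), a 4.02-fold difference. Ephb3 had 37.9, 30.9 and 24.3 CPM in medial and 12.8 and 13.6 CPM in lateral libraries. Its lowest medial value was still well above both lateral ones, with a log2 difference of 1.23 (SE 0.20, adjusted p = 0.0315, edgeR). Part of the exon sequence of Ephb1 (152 bases in GENCODE M21) overlaps that of Gm26846 on the other strand, whose reads cannot be told apart here. Both genes had their highest level in medial library 1, and both passed without it, at log2 fold changes of 1.87 and 1.06. Ephb2, which also carries signals for callosal axons, had between 198 and 224 CPM in medial and 165 and 173 CPM in lateral libraries (log2 fold change 0.32, SE 0.08, adjusted p = 0.0637). Ephb4, a receptor of veins, had values of 37.3, 48.0 and 43.8 against 34.8 and 25.4 CPM (0.52, SE 0.17, adjusted p = 0.104). Ephb6, a family member without an active kinase, was alone among the 5 in its negative sign (−0.40, SE 0.18, adjusted p = 0.187), with no overlap between groups. None of these 3 passed in edgeR with group as the only term.

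Epha3, which binds ephrin-A ligands, was the EphA receptor that passed. It had 74.1, 120 and 191 CPM in medial and 422 and 483 CPM in lateral libraries. The medial libraries spread over more than a doubling, yet the highest stayed well under the lateral pair, with a log2 difference of −1.82 (SE 0.36, adjusted p = 0.0399, edgeR) and 3.52-fold more in lateral cortex. Epha5 had 91.1, 192 and 227 CPM in medial and 323 and 382 CPM in lateral libraries. Its medial libraries came in the same order as those of Epha3, and the difference did not pass with all libraries (−1.05, SE 0.36, adjusted p = 0.107) but did without medial library 1 (−0.75, SE 0.12, adjusted p = 0.0255). Epha6 was rare, with 1.18, 2.34 and 1.06 CPM in medial and 0.623 and 0.613 CPM in lateral libraries, and medial library 2 was well above the other medial ones (1.28, SE 0.42, adjusted p = 0.0989).

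The other EphA receptors showed no difference past the threshold. Epha4, which binds ephrins of both classes, had between 692 and 839 CPM in medial and 607 and 716 CPM in lateral libraries, with overlap (0.24, SE 0.13, adjusted p = 0.251). Per kilobase of exon it was the most abundant Eph receptor in all 5 libraries, at between 95.9 and 133 CPM. Epha3 had between 11.8 and 30.3 CPM per kilobase in medial and 67.1 and 76.7 in lateral libraries. Epha7 had between 49.5 and 64.8 CPM in medial and 62.5 and 77.2 CPM in lateral libraries (−0.24, SE 0.15), and Epha2 and Epha8 stayed at or under 3.37 CPM throughout with overlapping groups. Epha8 had its lowest value, 0.395 CPM from 26 reads, in lateral library 1. Its log2 fold change was 0.70 over all libraries, 1.46 without lateral library 2, 0.15 without lateral library 1 and 0.19 without medial library 1, and it passed in none of these. Epha1 had 5, 1 and 0 medial and 5 and 0 lateral reads, and Epha10 had 2, 3 and 11 medial and 11 and 14 lateral reads. These were too few for the test with all libraries. Without medial library 1 Epha10 was tested and did not pass (0.04, SE 0.59, adjusted p = 0.972, edgeR).

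Of the 8 ephrin ligands, Efna5 was the one that passed, where 9.72% of all genes tested did. This ligand, known for its part in mapping thalamic axons onto cortical areas, had 3.26, 2.69 and 2.56 CPM in medial and 1.40 and 1.26 CPM in lateral libraries, from between 68 and 94 reads each. All medial values lay above the lateral ones, with a log2 difference of 1.08 (SE 0.22, adjusted p = 0.0406, edgeR). With libraries thinned to equal depth the adjusted p was 0.06045, and over all alternatives it ran from 0.00278 with DESeq2 to 0.286 without lateral library 2. Efna2 (17.8, 23.4 and 29.0 against 31.4 and 32.0 CPM) did not overlap between groups, with a log2 difference of −0.44 (SE 0.20, adjusted p = 0.191). Efna1, Efna3 and Efna4 had overlapping groups and log2 fold changes between −0.16 and 0.21. The lowest Efna3 level, 7.56 CPM, was that of medial library 1, and all other libraries had 17.5 to 21.6 CPM.

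The 3 ephrin-B ligands, which bind the EphB receptors above, all had negative log2 fold changes, as did 7868 of 16229 genes tested. Of these 3, 0 passed, where 9.72% of all genes did, and their difference from the EphB receptors was not tested. Efnb2, which is also a mark of arteries, had 102, 167 and 252 CPM in medial and 262 and 314 CPM in lateral libraries (−0.73, SE 0.35, adjusted p = 0.207, edgeR). Medial library 3 was nearly as high as lateral library 1. Efnb1 had 153, 239 and 282 CPM in medial and 326 and 270 CPM in lateral libraries, with overlap (−0.41, SE 0.25, adjusted p = 0.318). Efnb3 had 16.7, 22.5 and 25.2 CPM in medial and 28.4 and 31.3 CPM in lateral libraries (−0.47, SE 0.18, adjusted p = 0.135). In each of the 3, medial library 1 was the lowest of the 5 libraries. Per kilobase of exon, Efnb1 had the highest level of all 8 ephrins in every library, at between 46.9 and 100 CPM, followed in each by Efnb2 at between 21.3 and 65.6.

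**Figure D3:**
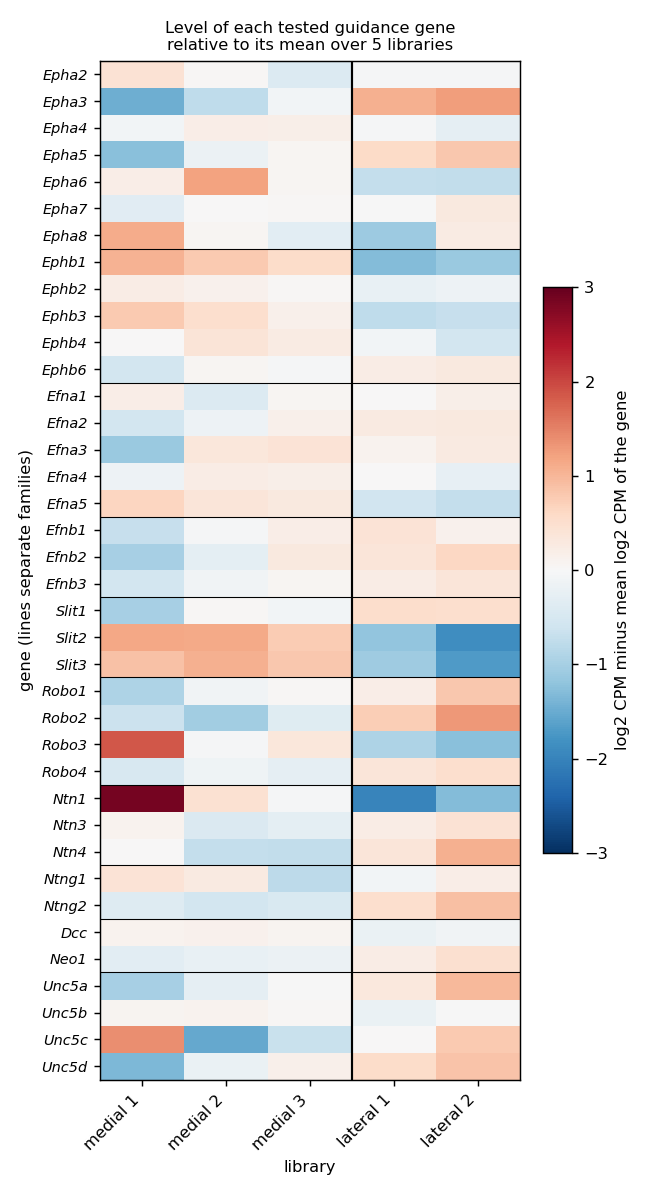
Log2 CPM of each tested guidance gene (rows, grouped by family) minus its mean over the 5 libraries (columns), with the black vertical line between medial and lateral libraries. Red is above and blue below the gene's mean; Slit2, Slit3 and Ephb1 are red in 3 of 3 medial libraries, whereas Ntn1, Robo3 and Unc5c are reddest in medial library 1.

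Of the 3 netrins tested 0 passed in edgeR with all libraries and group as the only term (9.72% of all genes did). Yet 1 had the largest fitted fold change of all 38 genes. Ntn1, the founding netrin of mammals and an attractant through Dcc, had 36.4 CPM in medial library 1, 6.85 and 4.92 CPM in medial libraries 2 and 3, and 1.26 and 2.04 CPM in the lateral libraries. The first library was 5.31-fold above the next, and the log2 fold change of 3.28 had an SE of 1.03 (adjusted p = 0.0888, edgeR). Without it the log2 fold change was 1.84 (SE 0.30) and passed (adjusted p = 0.0254). Ntn4, a netrin of basement membranes, had 15.8, 9.51 and 9.37 CPM in medial and 20.1 and 32.4 CPM in lateral libraries. Here too medial library 1 was the highest medial one, which narrowed the difference (−1.18, SE 0.30, adjusted p = 0.0585), and without it the value was −1.47 (SE 0.24, adjusted p = 0.0247). Ntn3 had between 6.22 and 9.06 CPM in medial and 9.81 and 11.4 CPM in lateral libraries (−0.52, SE 0.20, adjusted p = 0.132), and passed without medial library 1 (−0.69, adjusted p = 0.0427). Ntn5 had 5, 0 and 0 medial and 1 and 2 lateral reads and was not tested. Its absence from medial libraries 2 and 3 leaves room for levels up to 0.105 and 0.08345 CPM (3 reads).

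Ntng2, a netrin-G protein that is anchored in the axon membrane by lipid and binds the adhesion molecule Lrrc4, was lower in medial cortex. Its medial libraries had 13.2, 11.7 and 12.5 CPM and its lateral ones 24.2 and 32.3 CPM. Exons of Ntng2 are shared with 6530402F18Rik on the same strand. The medial values were close together and all under the lateral ones, with a log2 difference of −1.18 (SE 0.15, adjusted p = 0.0296, edgeR). Its relative Ntng1 had between 0.723 and 1.67 CPM in all libraries, with a log2 difference of −0.05 (SE 0.37, adjusted p = 0.947).

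Of the netrin receptors Neo1 passed. Neogenin, the Dcc relative that also binds the repulsive guidance molecules, had 175, 186 and 192 CPM in medial and 251 and 305 CPM in lateral libraries. The difference was modest and the medial libraries tight, with a log2 difference of −0.59 (SE 0.10, adjusted p = 0.0343, edgeR), which is 1.51-fold more in lateral cortex. Dcc, the attractive netrin receptor, had 160, 163 and 157 CPM in medial and 129 and 139 CPM in lateral libraries. Its medial libraries were nearly equal and all above the lateral pair, but the difference did not pass (0.26, SE 0.07, adjusted p = 0.0708).

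Among Unc5 receptors, through which netrin repels, 0 of 4 passed in edgeR with all libraries and group as the only term (9.72% of all genes did). Unc5d, also a mark of multipolar neurons and of upper-layer neurons, had 21.7, 48.4 and 61.2 CPM in medial and 81.4 and 99.6 CPM in lateral libraries (−1.04, SE 0.39, adjusted p = 0.132), and −0.72 (SE 0.15, adjusted p = 0.0372) without medial library 1. Unc5a had 4.58, 7.55 and 8.93 CPM in medial and 11.2 and 17.7 CPM in lateral libraries (−1.03, SE 0.32, adjusted p = 0.0860). Both were lowest in medial library 1 and had no overlap between groups. Unc5b had between 15.2 and 15.9 CPM in medial and 12.9 and 14.7 CPM in lateral libraries (0.17, SE 0.12). Unc5c had 9.92 CPM in medial library 1 but 1.29 and 2.39 CPM in medial libraries 2 and 3, under the lateral 3.82 and 6.54 CPM. Its log2 fold change was −0.20 (SE 0.77) with all libraries and −1.45 (SE 0.39, adjusted p = 0.0652) without medial library 1.

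Medial library 1 was the highest of the 5 libraries in 12 of the 38 genes (30.8% of all genes tested) and the lowest in 15 (31.7%), shares not far from those of all genes. In Ntn1 and Robo3 it stood at least 2-fold above every other library, which 2.29% of all genes did. Its meningeal, fibroblast, microglia and hem marker sums, given above, were also above those of every other library, and their part in the Ntn1, Robo3 and Unc5c values was not tested. The 15 genes lowest there were Epha3, Epha5, Epha7, Ephb6, Efna2, Efna3, Efnb1, Efnb2, Efnb3, Slit1, Robo1, Robo4, Neo1, Unc5a and Unc5d. Robo2 and Ntng2, which passed as lower in medial cortex, were not lowest there. The pan-neuronal marker sum was lowest there too (997 CPM against 1353 and 1536 CPM in the other medial libraries). Of its 9 markers, Nefl was highest there (10.4 CPM) and Rbfox3 was not the lowest. The part of neuron content in the values of these genes was not tested either.

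**Figure D4:**
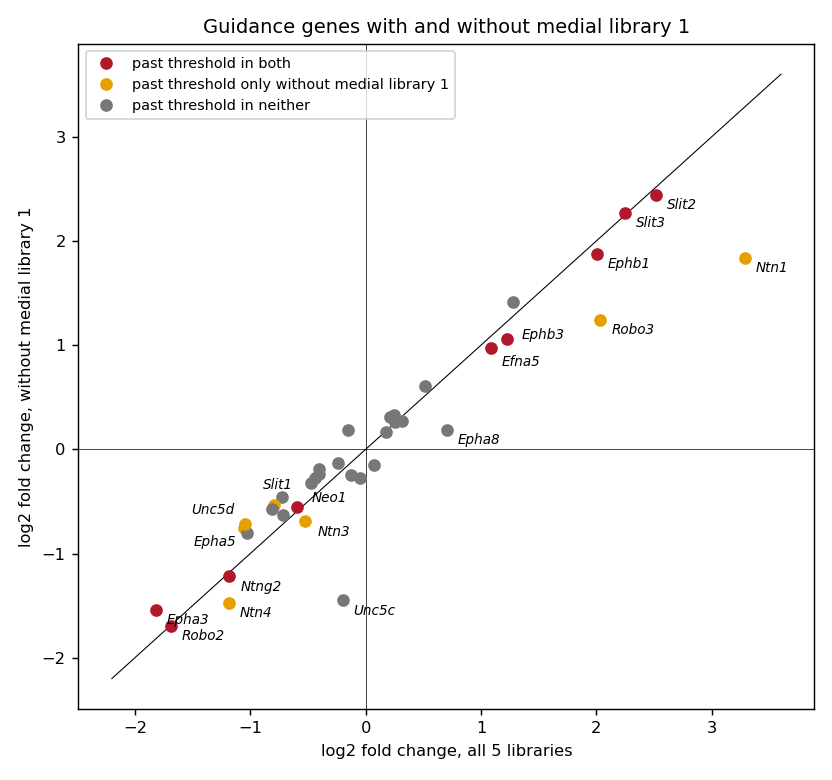
Log2 fold change of medial over lateral cortex in edgeR with all 5 libraries (horizontal axis) and without medial library 1 (vertical axis) for the 38 tested genes, with the line of equality. Red points passed in both fits, orange points only without that library and grey points in neither; Ntn1 moves from 3.28 to 1.84, Robo3 from 2.04 to 1.24 and Unc5c from −0.20 to −1.45.

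Genes that act with these ligands and receptors were followed in 3 lists. Of 30 tested netrin partners, 3 were higher and 7 lower in medial cortex, and so 33.3% passed, beside 9.72% of all genes tested. Over all genes tested, 4.62% were higher and 5.1% lower. The median log2 fold change of these partners was −0.13, against 0.01 over all genes tested. Dscaml1, an adhesion molecule related to the netrin receptor Dscam, averaged 13.3 CPM ± 3.08 (SD, n = 3) medially and 44.1 ± 3.63 (SD, n = 2) laterally (−1.72, SE 0.20, adjusted p = 0.0255, edgeR). Trim9, a ubiquitin ligase that binds Dcc, was lower too (−2.14, SE 0.34, adjusted p = 0.0315). Rgma, a membrane-anchored ligand of neogenin, was higher, with 97.8 CPM ± 6.53 (SD, n = 3) against 47.4 ± 10.6 (SD, n = 2), and so had the opposite sign to Neo1 (1.04, SE 0.15, adjusted p = 0.0299). Flrt3, an adhesion protein that binds Unc5 receptors and Robo1, was also higher (0.99, SE 0.16, adjusted p = 0.0315). In the same list Flrt2 was lower (−0.86, SE 0.16, adjusted p = 0.0372, edgeR) and Flrt1 did not pass (−0.07, SE 0.12). Dscam was lower as well (−1.36, SE 0.29, adjusted p = 0.0435, edgeR). Lrrc4, the binding partner of Ntng2, was lower (−1.17, SE 0.23, adjusted p = 0.0399).

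Of 31 tested ephrin partners, 2 were higher and 3 lower (16.1% passed, beside 9.72% of all genes tested), with a median of −0.15. The adaptor Grb10, which binds tyrosine kinase receptors, averaged 819 CPM ± 25.4 (SD, n = 3) medially and 540 ± 60.2 (SD, n = 2) laterally (0.60, SE 0.10, adjusted p = 0.0336, edgeR). The adaptor Nck1 was higher as well (0.49, SE 0.11). Grip1, a scaffold that binds ephrin-B tails (−0.66, SE 0.13), the focal adhesion kinase Ptk2 (−0.42, SE 0.09) and the exchange factor Arhgef7 (−0.47, SE 0.11) were lower. The common enzymes and GTPases Adam10, Rhoa and Rock2 had log2 fold changes between −0.04 and 0.04. Other enzymes of the same list lay further from 0 without passing, among them Rock1 (−0.19, SE 0.07), Fyn (−0.40, SE 0.10) and Abl1 (0.27, SE 0.07). Of 22 tested Slit-Robo partners, Flrt3 and Nck1, both shared with the lists above, were higher and 0 were lower. Thus 9.09% of this list passed, near the share of all genes, and its median was −0.08. Over the 71 different partners tested, 18.3% passed, beside 9.72% of all genes tested. Without medial library 1, 6 partners were higher and 12 lower, compared with 4 and 9 with all libraries, while the share of all genes that passed was 13.2% compared with 9.72%.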

How the data were processed

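The files hold deposited counts, whole numbers of reads per gene symbol that the authors left unnormalised, for 3 medial and 2 lateral libraries. Per the labels' protocols, library preparation selected polyA RNA and was unstranded. The submitters' processing notes name mm9, BWA, STAR and HTSeq, and their versions and roles are not given in the sources used here. Classes of reads assigned to no gene (23.1% to 28.7% of each file) were left out. Reads of opposite-strand genes cannot be told apart where exons overlap. In GENCODE M21 this touched 519 bases of Ntn5, 344 of Efna3, 236 of Epha1, 168 of Efna4, 152 of Ephb1, 139 of Ntn3, 118 of Unc5c and 34 of Unc5a, and same-strand exons are shared by Ntng2 with 6530402F18Rik and by Ntn3 with Tbc1d24.

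Counts were scaled with TMM, filtered with filterByExpr (16229 genes left) and tested with edgeR 4.0.16 (glmQLFit, glmQLFTest, R 4.3.3), group as the only term, and Benjamini-Hochberg adjustment over all genes. Each SE was taken as the absolute log2 fold change over the square root of its F statistic. Depth sets the precision: 3 reads, the level that a count of 0 still allows, are 0.0456 to 0.105 CPM, for counting error only. Levels per kilobase use the union of GENCODE M21 basic exons (GRCm38), which is not the annotation of the counts. The scripts were tested on simulated data. Alternatives used DESeq2 1.42.0, limma-voom (limma 3.58.1), other scalings and filters, thinning, replicate blocks and leaving out each library. DESeq2 without each library was added after seeing the data.

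The members and partner lists were chosen with earlier results of these data known. Named genes are all members. From each partner list the rule took the up to 4 called genes of lowest adjusted p. Arhgef7, Lrrc4, Flrt1, Flrt2, Dscam, Adam10, Rhoa, Rock2, Rock1, Fyn and Abl1 were named after their values were seen. TCF/LEF and GLI motifs were searched first, and the E-box, homeodomain and TATA motifs were added, and the printed promoters changed, after matches or sequences had been seen.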

Additional observations from a re-analysis of the deposited data

How the results depend on the processing

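The 9 members that passed kept their sign in all 16 alternatives. Their medial and lateral libraries did not overlap, so leaving out 1 library could hardly change a sign, and the kept signs test little. Leaving out 1 library moved the fold of 0 of the 9 by over 1.5 times. DESeq2 size factors, upper-quartile scaling, library size alone, the older edgeR form, limma-voom and both other filters gave the same 9 calls, and thinning gave 8, without Efna5. With DESeq2, 3527 genes, 10 higher and 11 lower members, and 9 higher and 20 lower partners passed. Leaving out 1 library in edgeR left between 0 and 2163 genes, 0 to 7 higher and 0 to 9 lower members, and 0 to 6 higher and 0 to 12 lower partners, with 2 residual degrees of freedom. DESeq2, added after seeing the data, gave 3041 genes without medial library 1 (9 higher and 12 lower members), 3108 without medial library 3 (8 and 13) and 664 without lateral library 2 (4 and 2), and without medial library 2 it gave 6 higher and 7 lower members.

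Replicate numbers in the titles are shared by the regions, but the labels name no shared source for them, so the samples share only a number. Deviations of same-numbered libraries had correlations of 0.09 and −0.38 over genes. With 2 lateral libraries the deviations of one mirror the other's, so these values cannot separate one pairing from another. With that replicate block, in which medial library 3 has no partner and adds nothing to the contrast, 1076 genes (6.63%), 4 higher and 6 lower members, and 1 higher and 9 lower partners passed. Of those 10 members 7 were among the 9. Efna5 (adjusted p = 0.0905) and Ntng2 (adjusted p = 0.0578) did not pass, and Efnb2, Robo1 and Unc5a did. A tag in the deposited names pairs medial library 2 with lateral library 1 and medial library 3 with lateral library 2. Deviations of libraries paired by that tag had correlations of 0.38 and 0.43, to which the same limit applies. With the replicate block by that tag 5364 genes (33.1%), 13 higher and 17 lower members, and 12 higher and 28 lower partners passed. Medial library 1 has no partner there, so this fit also takes it out of the contrast. Ntn1 was 1.84 with that block as it was without medial library 1. Leaving that library out with no block gave fewer, 2163 genes (13.2%) and 7 higher and 9 lower members. The cause of the higher counts with the block by tag was not tested.

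Sign changes occurred in 5 of the 29 members that did not pass, and 0 of the changed values passed. In all 5 the medial and lateral libraries overlapped. Leaving out 1 library gave ranges of −0.25 to 0.03 for Efna1 (highest without medial library 2, 0.0287), −0.40 to 0.19 for Efna3, −0.28 to 0.27 for Ntng1 and −1.45 to 0.24 for Unc5c. Efna3 was 0.19 both with the block by tag and without medial library 1. Epha2 was −0.11 thinned, −0.15 with the block by tag and −0.15 without medial library 1. Ntng1 was 0.0264 with library size alone, 0.27 with the replicate block, 0.27 without medial library 3 and 0.10 without lateral library 2. Unc5c was 0.24 without medial library 2, 0.12 without medial library 3 and 0.23 without lateral library 2. Depth limits Epha1, Epha10 and Ntn5, which had at most 14 reads in any library.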
